A study of Mus musculus with 6 samples.

Results

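The 4 Hox clusters of the mouse and the 1 Mb on either side of each were described in 3 maps of contact between chromatin and the nuclear lamina. The members are GATC fragments, the pieces of genome between neighbouring GATC sites, whose midpoint lies in a fixed window of the mm9 build. The windows are HoxA on chromosome 6 (52100000 to 52220000), HoxB on chromosome 11 (96050000 to 96230000), HoxC on chromosome 15 (102740000 to 102880000) and HoxD on chromosome 2 (74490000 to 74620000). They hold 261, 438, 332 and 281 fragments in that order, 1312 in all, and the flanks hold 18474, out of 6414976 fragments on chromosomes 1 to 19, X and Y. The rule uses coordinates alone, and the regions were proposed with earlier results of these data known.

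The cells were C57BL/6 wild type mouse embryonic fibroblasts (MEFs), which are cultured from embryos. All cells carried a lentiviral shRNA against LmnA, LmnC or LmnB1, were selected with puromycin, and then received either Dam by itself or Dam joined to a lamin. Dam is a bacterial enzyme that methylates adenine in GATC, and when fused to a lamin it marks sequence that touches the lamina, which is then amplified and sequenced (DamID). The LmnA RNAi and LmnC RNAi maps used Dam-LmnB1 and the LmnB1 RNAi map used Dam-LmnA, with 1 Dam-only and 1 fusion library per map. Each group is 1 library, so no test between maps was possible, and a difference that involves the LmnB1 RNAi map holds both the depleted lamin and the fused lamin, whose parts cannot be told apart. Every map carries an shRNA, the depletion of each lamin was not measured here, and the embryonic region behind the cells is not given in the sources used here. Values set as 3 numbers are in the order LmnA RNAi, LmnC RNAi, LmnB1 RNAi.

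Hox genes encode homeodomain transcription factors that set position along the body axis and along the limbs. They lie in tight clusters, and within a cluster their order follows the order of the body regions in which they act, from the head end to the tail end. In cells where they are silent the clusters are a classic target of Polycomb repression, while fibroblasts keep a Hox expression pattern that reflects the body site they came from. HoxA and HoxD also drive limb growth, and HoxD is flanked by gene deserts with enhancers for limbs and digits. Lamina-associated domains (LADs) are long stretches that contact the lamina and are mostly poor in active genes.

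In the RefSeq gene order of GRCm38.p6, which serves here for names and neighbours only, the clusters hold 39 Hox genes (11 in HoxA, 10 in HoxB, 9 in HoxC and 9 in HoxD) and 6 microRNA genes (Mir196b, Mir196a-1, Mir10a, Mir196a-2, Mir615 and Mir10b). HoxA has Hoxa13 at its high-coordinate end, next to Evx1 (a homeobox gene), and Skap2 (an adaptor protein) beyond its low end. The other 3 clusters run the opposite way, with their highest-numbered gene at the low end. HoxB lies from Hoxb13 to Hoxb1 between Ttll6, a tubulin-modifying enzyme, and Skap1. HoxC lies from Hoxc13 to Hoxc4 between Calcoco1 and Smug1, a DNA repair enzyme. HoxD lies from Hoxd13 to Hoxd1, with the homeobox gene Evx2 and then Lnpk on the low side and Mtx2, a mitochondrial protein gene, on the high side. Low-coordinate flanks are called left and high-coordinate flanks right below.

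DamID reads a promoter only through the GATC sites in and around it, so 1 promoter of each cluster is shown, that of a gene at the end of its cluster with an entry in the RefSeq table (GRCm38.p6). The 250 bases before the start are printed 5′ to 3′ with GATC in capitals.
Hoxa13, chr6:52260881-52261130, minus strand: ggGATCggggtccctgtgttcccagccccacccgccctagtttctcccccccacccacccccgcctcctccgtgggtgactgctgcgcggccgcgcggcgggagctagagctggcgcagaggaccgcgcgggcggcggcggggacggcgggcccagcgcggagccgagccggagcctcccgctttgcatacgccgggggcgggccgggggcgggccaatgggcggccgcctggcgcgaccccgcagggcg
Hoxb1, chr11:96365508-96365757, plus strand: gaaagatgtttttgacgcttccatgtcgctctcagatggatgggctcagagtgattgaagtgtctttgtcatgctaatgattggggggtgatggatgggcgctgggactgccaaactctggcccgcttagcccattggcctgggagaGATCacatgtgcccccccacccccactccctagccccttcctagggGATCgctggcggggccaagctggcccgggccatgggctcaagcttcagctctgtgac
Hoxc4, chr15:103034145-103034394, plus strand: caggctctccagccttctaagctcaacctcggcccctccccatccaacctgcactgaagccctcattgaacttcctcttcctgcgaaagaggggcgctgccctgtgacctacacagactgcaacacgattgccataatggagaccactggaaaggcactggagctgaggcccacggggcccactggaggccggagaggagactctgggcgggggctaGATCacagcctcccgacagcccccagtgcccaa
Hoxd13, chr2:74667975-74668224, plus strand: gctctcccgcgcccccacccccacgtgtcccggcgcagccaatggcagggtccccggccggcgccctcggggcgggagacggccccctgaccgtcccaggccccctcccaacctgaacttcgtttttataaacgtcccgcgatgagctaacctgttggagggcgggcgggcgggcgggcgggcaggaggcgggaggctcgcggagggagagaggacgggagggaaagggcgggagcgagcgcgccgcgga

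The Hoxa13 stretch has 1 GATC, at base 3, and 35 CpG pairs, while that of Hoxd13 has no GATC and 31 CpG pairs. Those of Hoxb1 and Hoxc4 have 2 and 1 GATC and only 7 and 8 CpG pairs. The table held 24 promoters of 22 of the 39 Hox genes. Of these, 13 (54.2%) had a GATC in the 250 bases, a palindrome read the same on both strands, against 41.9% of all 32851 promoters. These coordinates belong to GRCm38.p6 and cannot be set on the mm9 maps, so no fragment is assigned to a single Hox gene here. In the maps, GATC fragments averaged 459 bp in HoxA, 409 bp in HoxB, 421 bp in HoxC and 460.1 bp in HoxD, against 397 bp over all fragments.

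As the values show, signal is log2 of fusion over Dam-only reads per fragment, with 1e-05 added to both read numbers, plus a constant for each map (-0.34, 0.21 and -0.15). Where 1 of the libraries has no read, the log2 value is beyond 12 in size. The filtered mean given beside each mean leaves such fragments out. A fragment with equal read numbers, or no reads, in both libraries stands at the constant and stays in both means. At the constant were 24.5%, 21.6% and 22.9% of cluster fragments, against 30.3%, 29.2% and 30.6% of all fragments. Means are weighted by fragment length, and each SE is over fragments, so it describes spread along the sequence in 1 pair of libraries and not the spread between cultures. Total reads per library are unknown. In the clusters 275, 322 and 298 of the 1312 fragments were read in the Dam-only library alone, with 1027, 1538 and 1380 Dam-only reads. These were 20.96%, 24.54% and 22.71% of cluster fragments, against 8.25%, 11.97% and 10.17% of all fragments. Only 44, 53 and 48 cluster fragments were read in the fusion library alone, with 59, 70 and 82 fusion reads. Their shares were 3.35%, 4.04% and 3.66%, against 16.9%, 13.0% and 14.2% of all fragments.

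All 4 clusters lay on the low side of lamina contact in all 3 maps, HoxC less far than the others. Over all 1312 fragments the mean log2 ratio was -2.91 ± 0.13, -3.38 ± 0.17 and -2.71 ± 0.15, and the filtered means were -1.79, -1.73 and -1.39. Of the 25590 genome bins of 100 kb, 6.12%, 11.6% and 6.90% lay lower. Each cluster was below 0 in each map, where 33.7%, 48.2% and 42.1% of these bins were. The median bin was at 1.30, 0.15 and 0.63. Among fragments with a ratio off the constant of the map, 126 of 991, 87 of 1029 and 136 of 1012 cluster fragments favoured the fusion. Here and below this means a value above the constant, so more fusion than Dam-only reads, not scaled for library size. The shares were 12.7%, 8.45% and 13.4%, against 64.9%, 48% and 56.5% over the genome.

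HoxA was the lowest of the 4. Its mean was -3.41 ± 0.33, -4.37 ± 0.38 and -3.38 ± 0.32, and 2.68%, 2.63% and 1.97% of bins lay lower. Only 16 of 212, 6 of 225 and 12 of 216 HoxA fragments off the constant favoured the fusion. HoxB followed at -3.10 ± 0.23, -3.59 ± 0.36 and -2.85 ± 0.28. HoxD stood at -2.76 ± 0.27, -3.20 ± 0.30 and -2.57 ± 0.31. HoxC was the highest, at -2.39 ± 0.21, -2.43 ± 0.31 and -2.11 ± 0.24.

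The order HoxA, HoxB, HoxD, HoxC was the same in the 3 maps, but in most cases neighbours in it differed by little more than their errors. The filtered means kept HoxA at the bottom (-2.23 ± 0.13, -2.27 ± 0.13 and -1.66 ± 0.12). They did not keep the order of the rest. HoxB had -1.77, -1.58 and -1.41, HoxC -1.69, -1.50 and -1.24, and HoxD -1.51, -1.72 and -1.27, so HoxD lay below HoxC in the LmnC and LmnB1 RNAi maps and above it in the LmnA RNAi map.

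Sequence outside LADs is low as a whole, so the clusters were also set beside the 6245 bins of 100 kb with no LAD in any map, whose medians were -2.17, -3.22 and -2.20. HoxA was low also among these, with 10.7%, 10.3% and 7.75% of these bins lower. HoxB was less extreme (18.9%, 34.9% and 21.3% lower), as was HoxD (29.0%, 51.2% and 32.3%). For HoxC, 42.5%, 77.9% and 54.3% of these bins were lower. The filtered medians of the LAD-free bins were -1.33, -1.51 and -1.11. Against them the filtered means of the clusters were lower, except HoxB and HoxC after LmnC RNAi. Those means (-1.58 ± 0.09 and -1.50 ± 0.11) were level with the median within their SE.

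**Figure D1:**
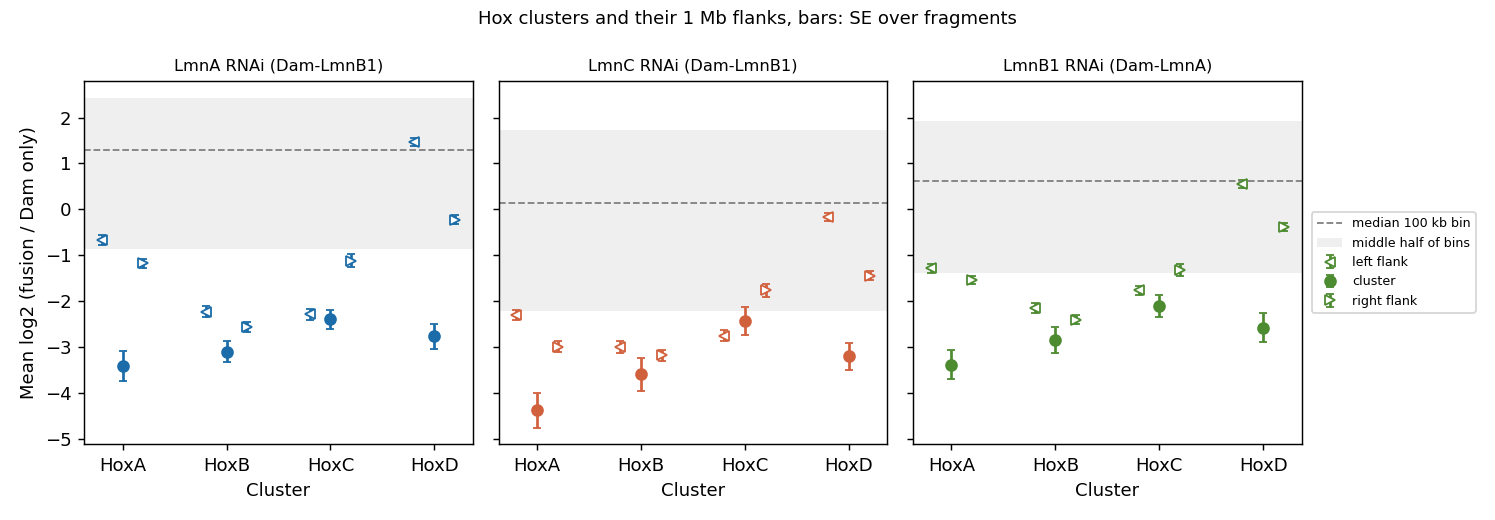
Mean log2 ratio of fusion over Dam-only reads (y axis) of each Hox window (filled circles) and its left and right 1 Mb flanks (open triangles) in each map, with bars for the SE over fragments; the dashed line is the median 100 kb bin of the map and the grey band the interquartile range of bins. All windows lie below the band in each map, and the left flank of HoxD is the only flank near the dashed line.

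LADs barely entered the windows. Of the 1312 cluster fragments, 18 (1.37%), 95 (7.24%) and 18 (1.37%) had their midpoint in a LAD, where 69.3%, 60.6% and 61.5% of all fragments did. HoxA and HoxB windows had none in any map. In HoxC a LAD of 167 kb, 192 kb and 164 kb abutted the left end of the window, on the side of Hoxc13 and Calcoco1 in gene order. It reached into the window by 5.05 kb, 36.9 kb and 7.59 kb. The further 29.3 kb that was in a LAD only after LmnC RNAi (102747593 to 102776908) had a mean log2 ratio of -1.60 ± 0.43, -0.80 ± 0.63 and -1.49 ± 0.46. The filtered means were -0.93, -0.74 and -0.64. The 3 maps thus differed there by about the size of their errors, and the signal was below 0 also in the map that has the LAD. With each map centred on its median 100 kb bin the means were -2.90, -0.95 and -2.11, so the LmnC RNAi map was the highest on both unfiltered scales.

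In HoxD a LAD ended at or near the left edge of the window in every map, on the side of Hoxd13 and Evx2 in gene order. It reached 3.31 kb into the window after LmnA RNAi and ended 11.9 kb before it in the other maps, in both at 74478123. The 15.2 kb between these ends had 1.26 ± 0.71, -1.15 ± 0.86 and -0.60 ± 0.86 over 40 fragments. The filtered means were -0.05, -0.62 and -0.43.

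**Figure D2:**
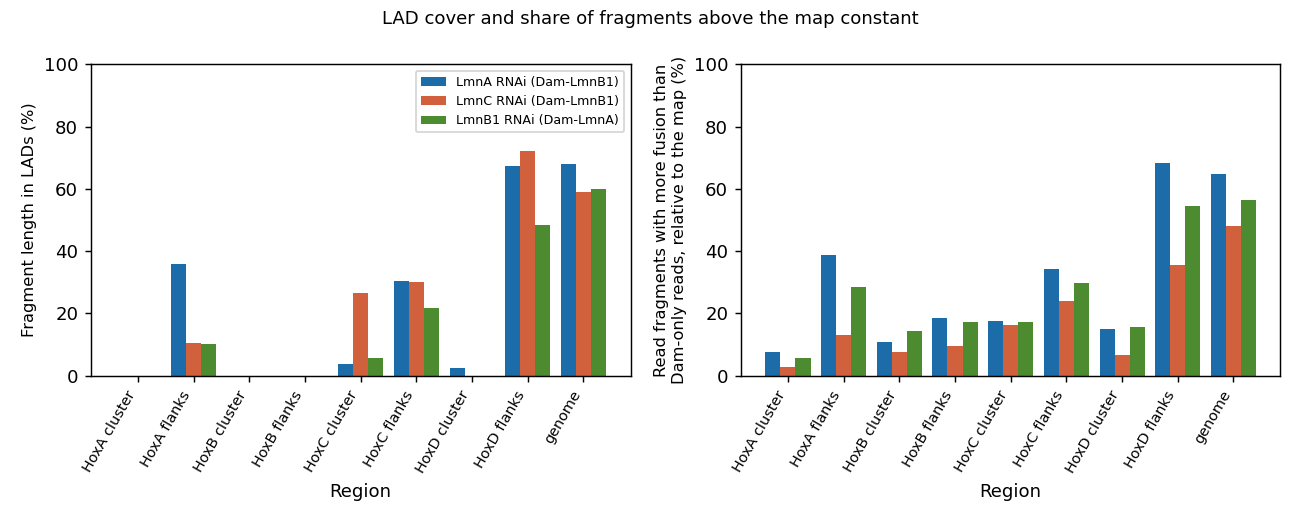
Left, percent of fragment length in LADs (y axis) for each Hox window, its flanks and the genome (x axis) in the 3 maps; right, percent of fragments off the map constant with a ratio above it. Cluster bars stay at or near 0 on the left except for HoxC after LmnC RNAi (26.4%), and on the right every cluster lies below its own flanks.

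Signal was not even along the clusters. Bins of 10 kb inside the windows were below 0 in 56, 55 and 56 of 57 cases, against 35.3%, 48.7% and 42.4% of the 255831 bins of the genome. Their median was -3.16, -3.46 and -2.78, and they ran from -5.55 to 0.21, from -6.73 to 0.48 and from -6.16 to 0.54. Each window was split into 4 equal segments, numbered with rising coordinate, to show where the clusters were high and low.

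HoxC rose toward its left end. Segment 1, on the Hoxc13 side, had -1.16 ± 0.41, -0.76 ± 0.52 and -1.22 ± 0.48, and segment 3 -3.81 ± 0.45, -4.46 ± 0.85 and -3.27 ± 0.53. The filtered means were -0.79, -0.64 and -0.52 in segment 1 and -2.69, -2.27 and -2.13 in segment 3, and segment 4 returned to -1.65, -1.43 and -1.44. In segment 3, 0 of 63, 0 of 57 and 4 of 67 fragments off the constant favoured the fusion, against 22 of 61, 20 of 66 and 18 of 57 in segment 1. The lowest 10 kb bin of HoxC was the same in all maps (102830001 to 102840000, 19 fragments), at -4.82 ± 0.79, -6.00 ± 1.49 and -5.74 ± 0.98. This bin was picked after its values were seen.

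HoxB had the same kind of slope on its left side. Segment 1, on the Hoxb13 side, had -1.83 ± 0.40, -2.24 ± 0.70 and -0.69 ± 0.46, with filtered means of -1.10, -0.73 and -0.74. Segment 3 had -3.36 ± 0.38, -4.62 ± 0.58 and -4.06 ± 0.54 (filtered -2.28 and -2.13 for the Dam-LmnB1 maps). Fragments that favoured the fusion fell from 15 of 70, 11 of 70 and 28 of 80 in segment 1 to 4 of 80, 0 of 87 and 3 of 86 in segment 3.

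HoxD differed from these in that its left end was low and its right end, on the side of Hoxd1, was high. Segment 1 had -3.78 ± 0.65, -3.64 ± 0.70 and -2.63 ± 0.44 (filtered -1.92, -1.92 and -1.67), beside a LAD. Segment 4 had -1.73 ± 0.59, -2.87 ± 0.63 and -0.95 ± 0.58 (filtered -0.62, -1.08 and -0.40). After LmnC RNAi the unfiltered means of these segments differed by about the size of their errors. In segment 4, 22 of 53, 8 of 57 and 22 of 54 fragments off the constant favoured the fusion, against 5 of 57, 2 of 55 and 4 of 55 in segment 1.

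HoxA was low in each of its 4 segments. Its segments lay between -2.42 ± 0.66 and -4.01 ± 0.69 after LmnA RNAi, between -3.70 ± 0.62 and -5.15 ± 0.78 after LmnC RNAi and between -3.22 ± 0.61 and -3.67 ± 0.71 after LmnB1 RNAi. These differences are within about 2 SE, and no segment had more than 6 fragments that favoured the fusion in any map. The filtered means spread further against their errors in the LmnA RNAi map, from -1.79 ± 0.23 in segment 2 to -2.94 ± 0.18 in segment 3. The 10 kb bin from 52130001 to 52140000 stood at 0.21 ± 1.29 after LmnA RNAi, with a filtered mean of -1.33. In the other maps it had -3.78 and -2.78.

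**Figure D3:**
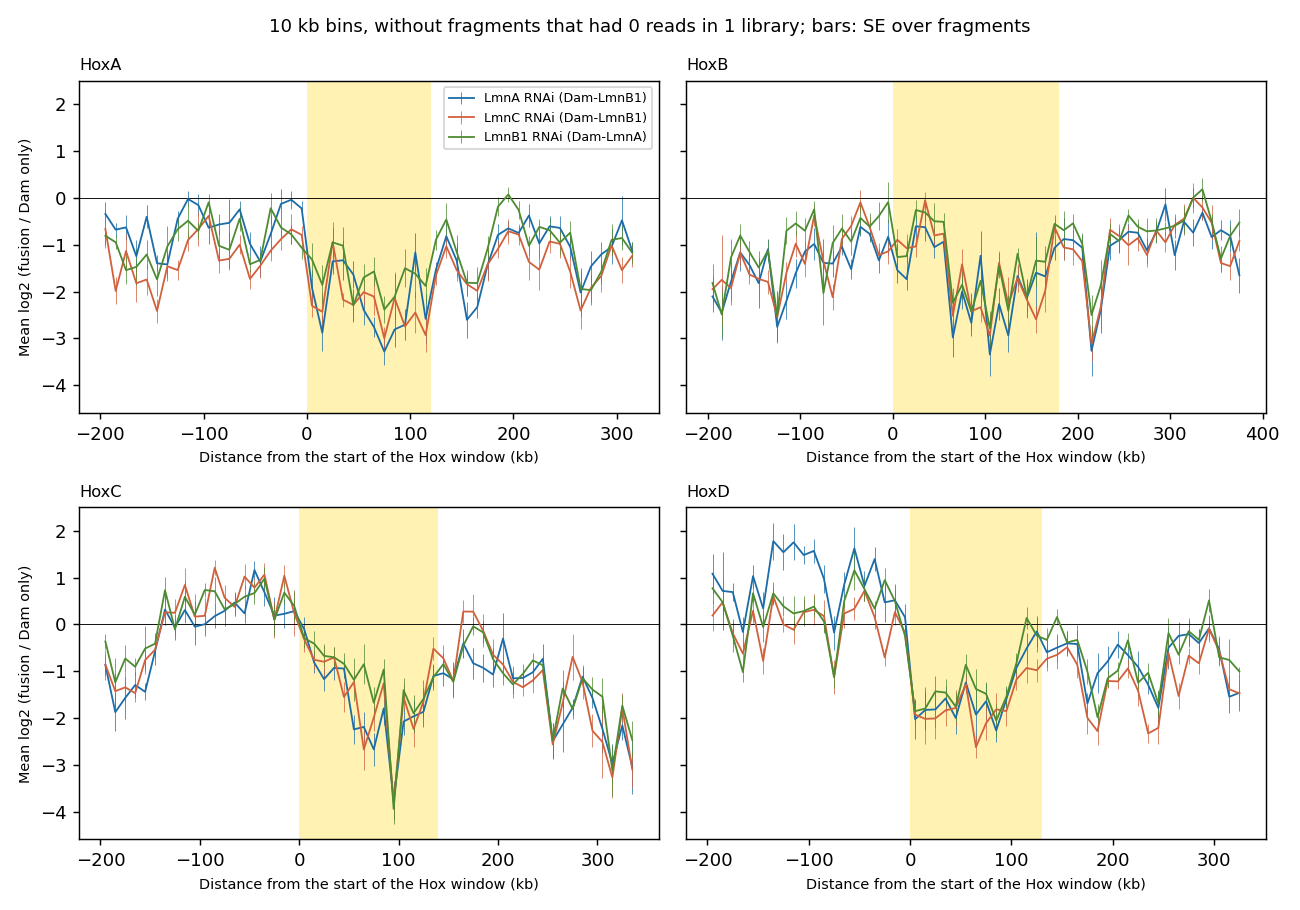
Filtered mean log2 ratio in 10 kb bins (y axis) against distance from the start of each Hox window in kb (x axis), with bars for the SE over fragments and the window in gold; colours are the 3 maps. HoxD drops at the left edge of its window in all maps, and HoxC declines across the first part of its window. HoxA lies low across its window, while HoxB is lowest past the first part of its window. Neither HoxA nor HoxB has a LAD beside it.

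The flanks differed from cluster to cluster more than the clusters did. They held 33.6%, 28.0% and 19.98% of their fragment length in LADs, against 67.9%, 58.9% and 59.8% for the genome. Their mean log2 ratio over all 8 sides was -1.10 ± 0.04, -2.22 ± 0.04 and -1.28 ± 0.04. Bins of 50 kb in the flanks numbered 152, and 107, 130 and 119 of them were below 0, against 34%, 48.1% and 41.9% of the 51168 bins of the genome. The highest and lowest bins named below were ranked by the mean of the 3 maps, so another bin can be higher or lower in a single map. The right flank of HoxC is shorter, since the last fragment of chromosome 15 ends 615 kb from the window.

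The HoxD flanks had the most LAD sequence. On the left, 91.5%, 92.1% and 65.1% of fragment length was in LADs, and the mean was 1.47 ± 0.09, -0.16 ± 0.09 and 0.56 ± 0.08 (filtered 0.67, -0.11 and 0.14). A stretch of 651 kb (73827391 to 74478123), on the side of Evx2, was in a LAD in all maps, with 2.09 ± 0.11, 0.45 ± 0.10 and 1.16 ± 0.10. The left bin of 50 kb highest by the mean of maps (74140001 to 74190000) had 2.14, 1.36 and 2.31. On the right, the side of Mtx2, the shares were 43.2%, 52.1% and 31.6% and the means -0.22 ± 0.10, -1.44 ± 0.10 and -0.38 ± 0.09. The LADs there began 362 kb, 281 kb and 448 kb from the window, so no map had a LAD directly beside the Hoxd1 end. The right bin lowest by the mean of maps (75570001 to 75620000) had -2.97, -4.53 and -2.20, within 2 SE of the HoxD cluster.

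From the last 50 kb before the HoxD window to segment 1, the mean changed from 1.43 ± 0.41 to -3.78 ± 0.65 after LmnA RNAi, from -0.06 ± 0.36 to -3.64 ± 0.70 after LmnC RNAi and from 0.52 ± 0.31 to -2.63 ± 0.44 after LmnB1 RNAi. HoxC also stood below the sequence on its left, with the decline spread over segment 1. The last 50 kb before the window had 1.25 ± 0.34, 0.76 ± 0.29 and 1.54 ± 0.35, and segment 1 -1.16, -0.76 and -1.22. On the right of HoxC the first 50 kb had -0.48 ± 0.35, -0.98 ± 0.39 and -1.30 ± 0.39, above the window and outside every LAD.

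The HoxC neighbourhood had LADs at 3 places. These were the far left end, next to the window, and the last 615 kb of the chromosome, where a LAD began 345 kb from the window in the Dam-LmnB1 maps and 477 kb from it in the Dam-LmnA map. The right bin highest by the mean of maps (103380001 to 103430000) reached 3.36, 2.81 and 2.48. Between the first pair of LADs lay 778 kb in no LAD (101800458 to 102578510), with -3.28 ± 0.14, -3.80 ± 0.15 and -2.66 ± 0.12. This is lower than the HoxC cluster in each map, but the filtered means (-1.59, -1.53 and -1.17) were lower than the cluster only after LmnC RNAi, by less than their errors. The left bin lowest by the mean of maps (101890001 to 101940000) had -5.40, -5.40 and -3.70.

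HoxA had 1 LAD on the left, the side of Skap2, that overlapped between all maps, of 224 kb, 207 kb and 203 kb, ending 315 kb, 324 kb and 333 kb from the window. The 198 kb they shared (51569683 to 51767199) had 0.93 ± 0.20, -0.49 ± 0.19 and 0.58 ± 0.22. After LmnA RNAi alone there was a second LAD on the left (51162714 to 51379103) and one on the right from 52941565, which reaches 278 kb into the flank. The left one had -0.24 ± 0.26, -2.14 ± 0.22 and -1.17 ± 0.23 (filtered -0.59, -1.02 and -0.72). The right part had 0.17 ± 0.16, -1.90 ± 0.19 and -0.60 ± 0.18 (filtered -0.43, -1.03 and -0.46), and the LmnA RNAi value changed sign with the filter. The next LAD on the right lay 1554 kb from the window in the LmnC RNAi map and 1508 kb in the LmnB1 RNAi map.

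HoxB had no LAD within 1 Mb on either side in any map. The nearest on the left were 1325 kb, 2340 kb and 2351 kb away, and on the right 2099 kb, 2863 kb and 2781 kb. The cluster thus lay in a LAD-free stretch of 3604 kb, 5383 kb and 5313 kb. All 40 flank bins were below 0 in each map. The flank means were -2.39 ± 0.08, -3.08 ± 0.09 and -2.28 ± 0.08, and by the mean of maps the lowest bins were left at 95250001 to 95300000 (-5.12, -5.30 and -4.20) and right at 96580001 to 96630000 (-4.90, -4.94 and -4.80). The highest by that mean were left at 95750001 to 95800000 (-0.72, -1.68 and -1.05) and right at 96330001 to 96380000 (-0.96, -0.98 and -0.44).

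**Figure D4:**
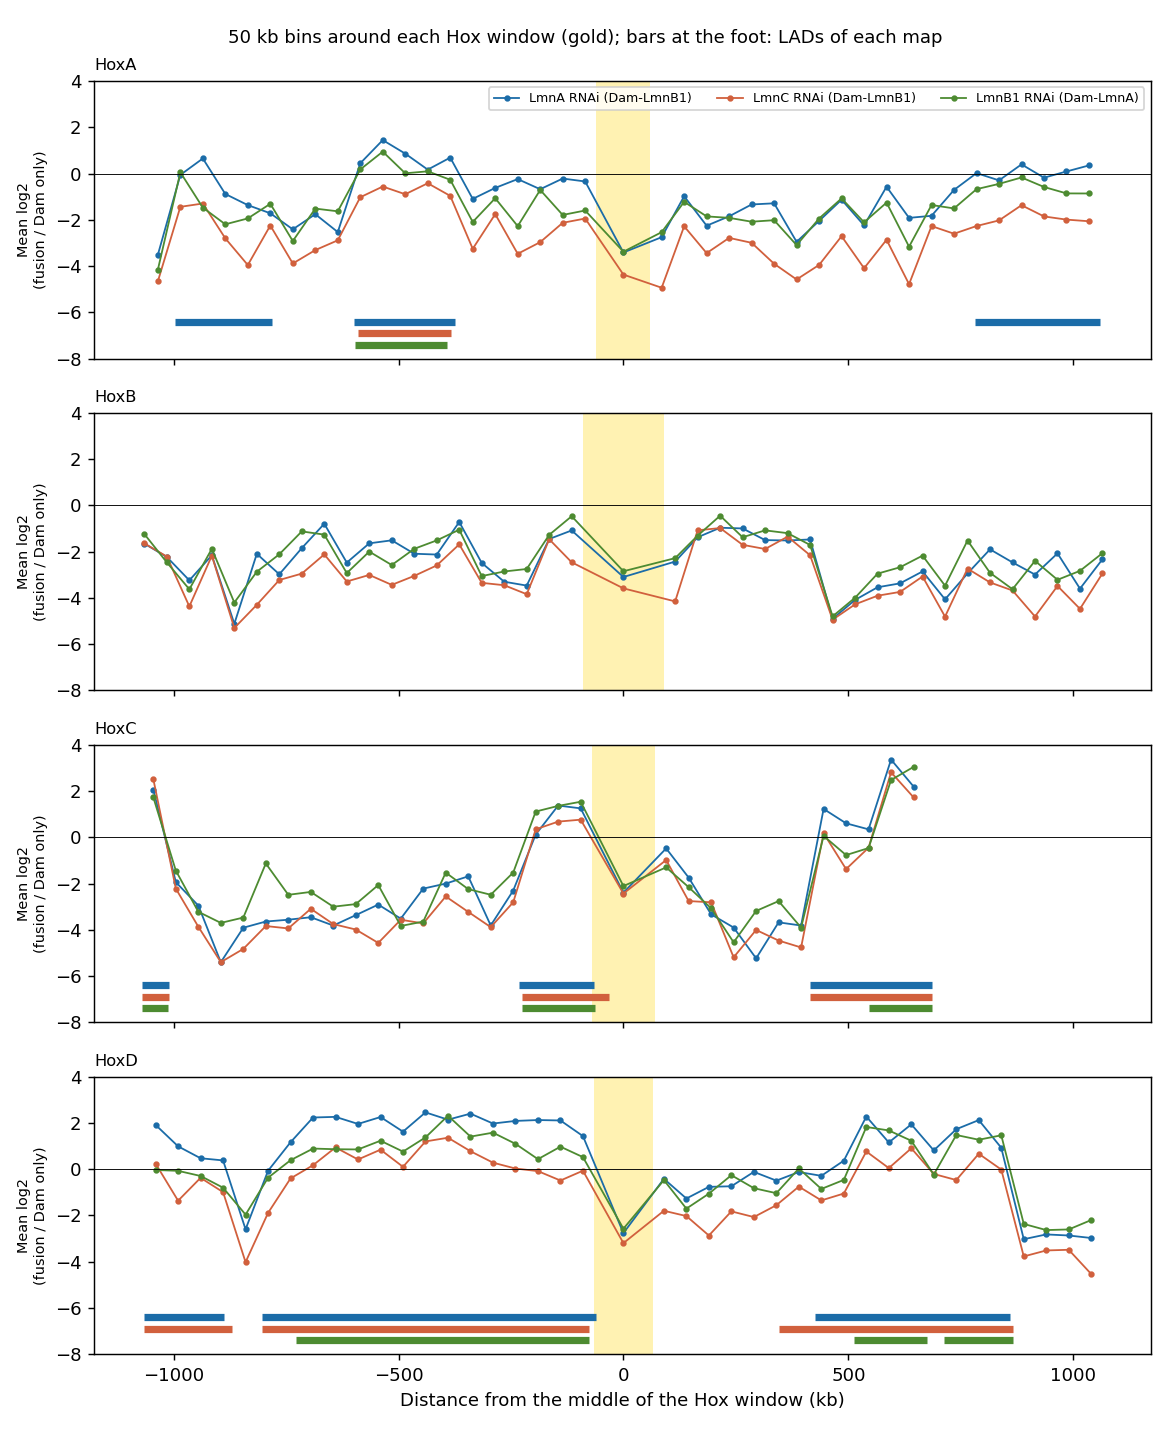
Mean log2 ratio in 50 kb bins (y axis) against distance from the middle of each Hox window in kb (x axis), with the window as 1 point in gold and the LADs of each map as bars at the foot of each panel. The left HoxD flank is mostly covered by LADs up to the window, the HoxB panel has no LAD, and the HoxC panel ends with the chromosome.

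Each cluster was lower than its own flanks on average, with larger gaps at HoxD and HoxA than at HoxB and HoxC. Cluster minus flanks was -3.38 ± 0.28, -2.39 ± 0.30 and -2.66 ± 0.32 at HoxD. It was -2.50 ± 0.34, -1.73 ± 0.39 and -1.97 ± 0.32 at HoxA. At HoxB it was -0.70 ± 0.24, -0.50 ± 0.37 and -0.57 ± 0.29, and at HoxC -0.55 ± 0.23, -0.06 ± 0.33 and -0.51 ± 0.26. The values at HoxB and HoxC are within about 3 of their errors, and that of HoxC after LmnC RNAi is within 1 and was above 0 under 4 other settings. On the filtered scale all 12 differences stayed below 0, from -1.66 (HoxD, LmnA RNAi) to -0.20 (HoxB, LmnC RNAi), and HoxC had -0.70, -0.53 and -0.43.

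The rank within the neighbourhood separated the clusters in the same way. Of 40 flank bins, 1, 4 and 1 lay below the HoxA window, and 4, 5 and 2 below the HoxD window. At HoxB 10, 13 and 13 of 40 lay lower, and at HoxC 16, 21 and 17 of 32. The filtered counts were 1, 3 and 2 at HoxA, 4, 3 and 3 at HoxD, 7, 13 and 9 at HoxB and 8, 11 and 12 at HoxC. The HoxA and HoxD clusters were thus among the lowest sequence within 1 Mb on both scales, while the place of HoxC, near the middle before the filter, was lower after it.

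LmnA RNAi and LmnC RNAi, the 2 maps with the same fusion, were compared next. The 4 clusters together differed by 0.46 ± 0.19 (LmnA RNAi minus LmnC RNAi), less than the median 100 kb bin of the genome (0.95, interquartile range 0.53 to 1.41). Bins with no LAD in any map had a median of 1.04. By cluster the difference was 0.96 ± 0.41 at HoxA, 0.49 ± 0.40 at HoxB, 0.04 ± 0.36 at HoxC and 0.43 ± 0.31 at HoxD. Only HoxA lay more than 2 SE from 0, and its value was that of the median bin. The share of genome bins with a lower difference was 50.4%, 23.3%, 6.74% and 20.6% from HoxA to HoxD. On the filtered scale the difference was 0.05, -0.20, -0.20 and 0.21, and -0.05 over all, beside 0.27 for the median bin. With each map centred on its median 100 kb bin, it was -0.69 over all, and below 0 at each cluster.

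The flanks showed larger differences at HoxA and HoxD than at HoxB and HoxC. LmnA RNAi exceeded LmnC RNAi by 1.63 ± 0.14 on the left and 1.81 ± 0.14 on the right of HoxA, and by 1.63 ± 0.12 and 1.22 ± 0.11 at HoxD. The values were 0.77 ± 0.15 and 0.61 ± 0.14 at HoxB, and 0.46 ± 0.16 and 0.64 ± 0.17 at HoxC. On the filtered scale HoxD kept 0.79 and 0.46 and HoxA 0.43 and 0.45, where HoxB had 0.07 and -0.13 and HoxC -0.09 and 0.08. A difference above 1 was seen in 86 of 152 flank bins (56.6%), where 47.5% of genome bins showed one. These were 35 of 40 bins at HoxA, 32 of 40 at HoxD, 12 of 40 at HoxB and 7 of 32 at HoxC. A difference below -1 was seen in 1 flank bin, against 0.59% of genome bins.

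Centring each map on its median 50 kb bin split the neighbourhoods. Differences above 1 were then found in 15 flank bins (9.87%), with 9.32% of genome bins, and differences below -1 in 18 (11.8%), with 13.6% of genome bins. The first were 10 at HoxA, 4 at HoxD and 1 at HoxB, and the second 9 at HoxB and 9 at HoxC. On the deposited scale, the largest excess after LmnA RNAi was at 51900001 to 51950000, left of HoxA and outside every LAD (-0.24 against -3.47, filtered -0.67 against -1.47). At HoxD it was at 74390001 to 74440000, inside the LAD of all maps (2.11 against -0.49, with a filtered difference of 1.00). The largest at HoxB was 2.20 as deposited (1.09 centred) and at HoxC 1.98 (0.86 centred). The lowest deposited difference was -1.23 at HoxC (103080001 to 103130000, -5.23 against -4.00; -2.34 centred), and its filtered value was 0.08, so the direction there turned with the filter.

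**Figure D5:**
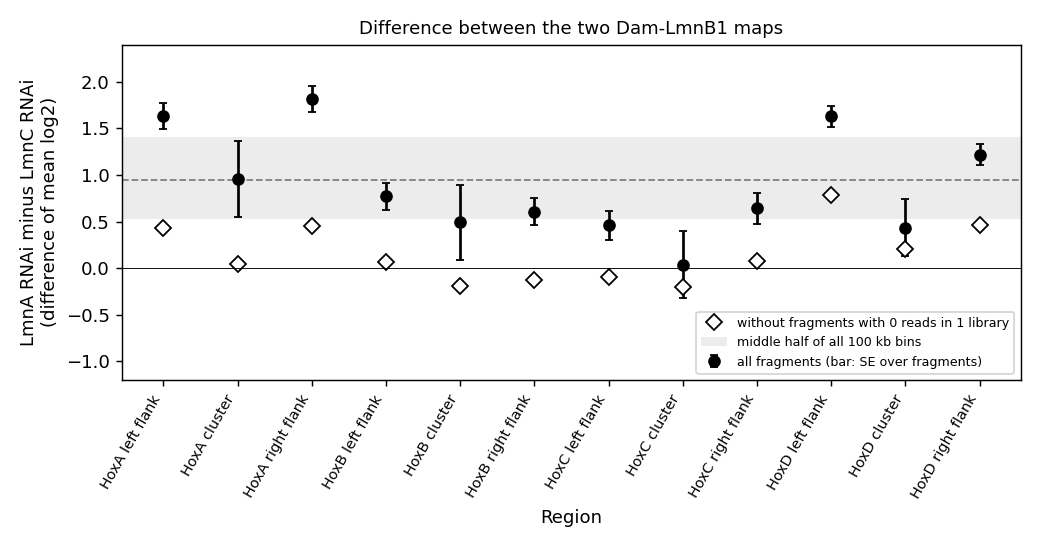
LmnA RNAi minus LmnC RNAi (y axis, difference of mean log2 ratio) for each Hox window and flank (x axis), with bars for the SE over fragments, open diamonds for filtered means, and the interquartile range of all 100 kb bins in grey with their median dashed. The HoxA flanks and the left HoxD flank lie above the band. The windows of HoxB, HoxC and HoxD lie below the dashed line, as do both flanks of HoxB and HoxC.

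The LmnB1 RNAi map, made with Dam-LmnA, was set beside the LmnA RNAi map in the same way. LmnA RNAi minus LmnB1 RNAi was -0.03 ± 0.39 at HoxA, -0.25 ± 0.32 at HoxB, -0.29 ± 0.29 at HoxC and -0.19 ± 0.35 at HoxD, all within 1 SE or close to it. Over all clusters it was -0.20 ± 0.17, with a filtered value of -0.40 and each cluster below 0. The median genome bin had 0.48 (filtered 0.18), and LAD-free bins had a median of 0.06 (filtered -0.19). With the maps centred the difference was -0.87 over all clusters and -0.70, -0.92, -0.96 and -0.86 from HoxA to HoxD. Centring takes 0.67 off this difference everywhere, so it also puts the median of LAD-free bins well below 0. LmnC RNAi minus LmnB1 RNAi was -0.66 ± 0.19 over all clusters, beside -0.52 for the median bin and -0.99 for LAD-free bins, and -0.18 with the maps centred. In the flanks, 25 of 152 bins (16.4%) were higher by more than 1 after LmnA RNAi than after LmnB1 RNAi (25.7% of genome bins), and 7 (4.61%) lower (4.21%). After centring these were 4 (2.63%, with 7.51% of genome bins) and 43 (28.3%, with 16%). Between LmnC RNAi and LmnB1 RNAi, 0 bins were higher (2.09%) and 68 (44.7%) lower (27% of genome bins). Centring gave 33 lower (21.7%, with 11.8% of genome bins) and 1 higher (8.32%). The median flank bin of LmnC RNAi minus LmnB1 RNAi was -0.90, close to the -0.99 of LAD-free 100 kb bins. The flanks hold less LAD sequence than the genome, and these shares were not counted among LAD-free bins. Whether they are particular to the Hox flanks was therefore not tested.

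LAD state was the same in the 3 maps over most of the 8185 kb of clusters and flanks. No map had a LAD over 66.9% of it, all maps had one over 18.5%, and the maps differed over 14.6% (1192 kb). The same shares and stretch counts are not given here for the whole genome. Whether they are particular to the Hox neighbourhoods was therefore not tested. Stretches of 25 kb or more that differed numbered 9. Of these, 2 were in LADs after LmnA RNAi alone (both at HoxA), 2 after LmnC RNAi alone, and 5 in all but the LmnB1 RNAi map (4 at HoxD and 1 at HoxC). The second of those after LmnC RNAi alone, besides the one in the HoxC window, lay right of HoxD from 74900508 to 74981751, with -0.33 ± 0.35, -0.99 ± 0.38 and -0.38 ± 0.28. The map with the LAD had the lowest deposited signal, but with the maps centred the values were -1.63, -1.13 and -1.01 and the LmnA RNAi map was the lowest. No stretch was in a LAD after LmnB1 RNAi alone.

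The stretches missing only after LmnB1 RNAi are given next. Left of HoxD, 73490000 to 73666666 had 1.15 ± 0.23, -0.50 ± 0.20 and -0.18 ± 0.18, and 73751819 to 73827391 had 0.84 ± 0.28, -0.64 ± 0.26 and 0.08 ± 0.33. Right of HoxD, 74981751 to 75068236 had 0.27 ± 0.28, -1.05 ± 0.25 and -0.64 ± 0.28, and 75230848 to 75267589 had 0.39 ± 0.38, -0.20 ± 0.28 and -0.65 ± 0.25. At HoxC, 103225480 to 103356884 had 0.52 ± 0.24, -0.75 ± 0.22 and -0.46 ± 0.23. As deposited, the signal after LmnB1 RNAi was below that after LmnC RNAi in 1 of these 5 stretches. With each map centred on its median 100 kb bin it was below in 4 of 5, the exception being the stretch from 73751819. An example is -0.81 against -0.65 in the stretch from 73490000. Except in the stretch from 75230848, the centred gap was smaller than the SE of either map. The filtered means as deposited were higher after LmnB1 RNAi than after LmnC RNAi in all these stretches. In that from 73490000 they were -0.07 against -0.48, and in that from 75230848 -0.09 against -0.29. The stretches were picked by their LAD state in these same maps. The LAD caller and its threshold were not given in the sources used here.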

How the data were processed

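DamID of MEFs gave 3 maps from 6 libraries (1 Dam-only and 1 fusion each). Reads were aligned with Bowtie to mm9, per the submitters' processing notes; how ratios were made and LADs called was not given in the sources used here. Deposited by the authors were 1 log2 value per GATC fragment and, per map, the start and end of each LAD. Reads of fragments read in 1 library were recovered from the steps of the log2 values and were whole within 0.02 in 100% of values up to 100 reads. Windows were read from the fixed mm9 rule, with flanks of 1 Mb, and a fragment belongs where its midpoint lies. Genome bins of 100, 50 and 10 kb needed at least 50% of their length covered. The code for bin and region means was run on simulated reads with a known shift, whose depth was not matched to these maps. Python 3.11.15, numpy 2.4.6 and pandas 2.3.3 were used. The regions and lists were chosen with earlier results of these data known. Named regions are every LAD and every differing stretch of 25 kb or more near the windows, and the highest, lowest and most different 50 kb bins. Coordinates are those of the files. Alternatives concerned the treatment of fragments with 0 reads in 1 library, fragments at the constant, weights, window and flank width, centring, LAD assignment and LAD length.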

Additional observations from a re-analysis of the deposited data

How the results depend on the processing

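Each group holds 1 library, so no replicate could be left out. No paired analysis was possible because each group holds 1 library. Values set as 3 numbers are in the order LmnA RNAi, LmnC RNAi, LmnB1 RNAi, and no cause was tested. With the fragments read in only 1 library left out, the 4 clusters together had -1.79, -1.73 and -1.39, the flanks -0.75, -1.02 and -0.70, and cluster minus flanks -1.03, -0.74 and -0.68. With 1 read added to such fragments these were -1.80, -1.73 and -1.45, then -0.76, -1.04 and -0.72, then -1.04, -0.72 and -0.73. With fragments weighted equally the clusters had -4.41, -4.63 and -4.43, the flanks -2.80 (LmnC RNAi) and -1.98 (LmnB1 RNAi), and the difference was -3.32, -1.94 and -2.53. Without fragments at the constant the flanks had -1.19, -2.45 and -1.41. Windows widened by 20 kb gave cluster means of -2.31 (LmnA RNAi) and -2.29 (LmnB1 RNAi), differences of -1.15 and -1.0005 in these maps, and 6.55%, 8.84% and 4.82% of cluster length in LADs. Flanks of 0.5 Mb had -0.98 (LmnA RNAi) and -2.10 (LmnC RNAi), with 28.5%, 29.8% and 22.2% in LADs.

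LmnA RNAi minus LmnC RNAi depended most on the processing. Over all clusters it was -0.052 without fragments with 0 reads in 1 library, -0.074 with 1 read added and -0.69 with maps centred. In all flanks it was 0.27, 0.28 and -0.032 under these settings, 1.26 without fragments at the constant and 1.68 with equal weights. By cluster, centring turned HoxA to -0.20, HoxB to -0.66, HoxC to -1.12 and HoxD to -0.72. HoxB turned to -0.20 without the 0-read fragments and -0.22 with 1 read added, and HoxC to -0.20 and -0.21, to -0.0014 without fragments at the constant and to -0.61 with equal weights. The flanks of HoxB turned to -0.031, -0.029 and -0.46 (0-read fragments out, 1 read added, centred) and those of HoxC to -0.027, -0.027 and -0.62. HoxC minus its flanks after LmnC RNAi turned to 0.012 without fragments at the constant, 0.11 with equal weights, 0.34 with wider windows and 0.028 with shorter flanks. The HoxD flanks after LmnB1 RNAi turned to -0.11 and -0.092 under the 0-read settings. Counting only LADs of 200 kb or more moved the nearest LAD to 1949 kb right of HoxA (LmnC RNAi), 2323 kb left and 2877 kb right of HoxB (LmnA RNAi), 939.7, 939.5 and 942.0 kb left of HoxC and 1224 kb right of HoxD (LmnB1 RNAi). Total reads per library are unknown, so the depth behind small differences cannot be stated.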
